A study of Mus musculus with 6 samples.

Results

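Dendritic cells are the antigen-presenting cells that carry material from a tissue to T cells, and bulk RNA of mouse lavage cells was examined here for 10 genes that mark them. The genes were taken by name from the deposited tables. All 10 were present among the 40564 genes of each table. Xcr1, Clec9a, Itgae and Irf8 stand for type 1 conventional dendritic cells (cDC1), Cd209a for type 2 (cDC2), Siglech for plasmacytoid dendritic cells, and Ccr7 and Fscn1 for the mature, migratory state. Flt3 and Zbtb46 mark conventional dendritic cells and their precursors in general.

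The samples were cells of bronchoalveolar lavage (BALF), the fluid washed from the airspaces of the lung, taken without treatment. The 6 samples formed 3 genotypes with 2 replicates each. They were Cis Stat6 KO, a double knockout that lacks CIS and the transcription factor STAT6; Cis KO, which lacks CIS, the cytokine signalling inhibitor encoded by Cish; and WT. The STAT6-deficient cells therefore also lacked CIS, and Stat6 loss alone was not among the samples. All 6 carry 1 batch label. Neither strain, age, sex nor the design of the knockout alleles is stated. Nothing says that replicates came from separate mice, so p-values reflect only how much these libraries vary, which may be technical.

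Conventional dendritic cells arise from bone marrow precursors that depend on the FLT3 receptor. The cDC1 branch needs the transcription factors IRF8 and BATF3, recognises dead cells through CLEC9A and is recruited through the chemokine receptor XCR1. Plasmacytoid cells make type I interferon. On maturation, dendritic cells gain CCR7, which guides them along lymphatic vessels to lymph nodes, and fascin, the product of Fscn1, which bundles actin in their processes. In an untreated lung, most lavage cells are alveolar macrophages and dendritic cells are a small minority.

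The labels call the cells immune cells of lavage. The 8 alveolar macrophage genes examined, led by Chil3, summed to between 6632 and 18824 FPKM in each library, where FPKM is the authors' read count scaled by gene length and library size. NK cell genes, led by Gzma, summed to at most 0.47 FPKM, genes of monocytes and interstitial macrophages, led by Ccr2, to 1.96 to 4.63, and epithelial genes, led by Scgb1a1, to 15.3 to 249.85, highest in Cis KO replicate 2. Read totals lay between 50762354 and 65937118. The targeted genes stood lower in the genotypes that name them, given in CPM, the read count per library size after TMM scaling. Cish had 1.72 and 5.04 CPM in Cis Stat6 KO, 4.34 and 3.52 in Cis KO, and 46.2 and 56.2 in WT. Stat6 stood at 31.6 and 25.5 CPM in Cis Stat6 KO, 264 and 221 in Cis KO, and 233 and 227 in WT. Stat6 was called lower in Cis Stat6 KO against Cis KO (log2 -3.09 ± 0.20, edgeR adjusted p 0.0061), whereas Cish in Cis KO against WT, at -3.70 ± 0.52, missed the threshold (edgeR adjusted p 0.0624). Cis KO replicate 2 stood apart: haemoglobin genes took 3.29% of its reads, against at most 0.0366% elsewhere, and 15855 genes had a read, against 19641 to 20431. Its 7 erythroid genes, led by Hba-a1, summed to 39782 FPKM, against at most 456 elsewhere. Its 8 B cell genes, led by Ighm, summed to 47.0 FPKM, against at most 7.09 elsewhere. Low counts need care in every library. Between 251 and 1053 genes per library held exactly 4 reads, against 142 to 472 with 3 reads and 79 to 278 with 5, an excess whose cause was not tested. Counting intervals and limits given here cover counting error only and take each read as independent, so they may be too narrow.

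The regulatory sequences of the marker genes are shown first, because CIS restrains cytokine receptors that signal through STAT proteins and STAT6 is itself missing in Cis Stat6 KO. RefSeq windows on GRCm38.p6 were found for 8 of the 10 genes, with 9 windows in all. The 250 bases before the start of transcription are printed for Irf8, Clec9a, Flt3 and Xcr1, the genes for which the libraries of at least 1 mutant genotype lay apart from the others in the results that follow. Capitals mark TTCNNNGAA, the core of a STAT site, searched on both strands; the motif reads the same on either. The Irf8 window is chr8:120736108-120736357 (plus strand), that of Clec9a chr6:129408612-129408861 (plus strand), that of Flt3 chr5:147400490-147400739 (minus strand) and that of Xcr1 chr9:123862030-123862279 (minus strand).
Irf8: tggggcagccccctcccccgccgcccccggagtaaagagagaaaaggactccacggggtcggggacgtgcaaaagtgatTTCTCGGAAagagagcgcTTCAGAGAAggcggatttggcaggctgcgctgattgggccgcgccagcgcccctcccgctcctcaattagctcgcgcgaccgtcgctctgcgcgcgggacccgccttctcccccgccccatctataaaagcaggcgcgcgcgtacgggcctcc
Clec9a: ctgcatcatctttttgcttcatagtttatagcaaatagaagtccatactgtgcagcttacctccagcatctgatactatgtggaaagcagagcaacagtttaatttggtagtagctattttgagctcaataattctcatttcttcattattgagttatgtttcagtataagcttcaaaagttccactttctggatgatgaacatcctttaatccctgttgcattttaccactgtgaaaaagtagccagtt
Flt3: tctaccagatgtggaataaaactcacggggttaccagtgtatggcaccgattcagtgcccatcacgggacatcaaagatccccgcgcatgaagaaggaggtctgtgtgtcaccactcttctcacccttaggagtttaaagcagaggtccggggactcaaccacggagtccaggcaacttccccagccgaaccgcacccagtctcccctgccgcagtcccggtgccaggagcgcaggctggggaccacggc
Xcr1: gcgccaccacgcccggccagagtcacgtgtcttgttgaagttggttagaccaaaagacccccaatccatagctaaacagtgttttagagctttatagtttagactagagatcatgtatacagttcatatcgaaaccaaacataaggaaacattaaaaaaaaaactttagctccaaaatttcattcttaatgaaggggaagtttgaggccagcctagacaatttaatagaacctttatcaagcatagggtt
The Irf8 window held 2 matches, TTCTCGGAA and TTCAGAGAA, which begin 171 and 153 bases before the start. The window of Siglech held 1 match, TTCTCTGAA. The other 7 windows had none, and a second Irf8 window further downstream was among those 7. Of all 32851 windows of this length 7.02% held the motif. The STAT6 type of spacing, TTCNNNNGAA, was in none of the members' windows and in 5.85% of all. The paired IRF motif GAAANNGAAA was also in none, against 2.98% of all. A match of letters is a description of the window and not a measurement of binding.

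The 4 cDC1 markers did not share 1 pattern over the genotypes. Irf8 (ENSMUSG00000041515, mm10 chromosome 8, 120736358 to 120756694) was by far the most abundant marker per length, at 14.22 and 9.13 FPKM in Cis Stat6 KO, 19.53 and 17.09 in Cis KO, and 17.64 and 16.51 in WT. IRF8 is also made by macrophages, B cells and monocytes, so its level in lavage is not a measure of cDC1 alone. Both Cis Stat6 KO libraries were the lowest of the 6. In CPM, Irf8 averaged 90.1 ± 18.5 in Cis Stat6 KO, 148 ± 10.9 in Cis KO and 128 ± 4.85 in WT (SD, n = 2 each). Its log2 fold change in Cis Stat6 KO against Cis KO was -0.72 ± 0.20 (SE), with an adjusted p of 0.186 and an unadjusted p of 0.00991 in edgeR. DESeq2 called it, with an adjusted p of 0.0309, and without Cis KO replicate 1 edgeR did, with 0.022, a setting in which 32.2% of all genes were called. Over all alternatives the edgeR and DESeq2 adjusted p ran between 0.022 and 0.73. Against WT the change in Cis Stat6 KO was -0.51 ± 0.20 (edgeR adjusted p 0.881), and in Cis KO against WT it was 0.21 ± 0.20 (edgeR adjusted p 0.666).

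Clec9a (ENSMUSG00000046080, mm10 chromosome 6, 129408862 to 129424763), the receptor for exposed actin of dead cells, had 33 and 25 reads in Cis Stat6 KO, 165 and 65 in Cis KO, and 3 and 11 in WT. The 3 genotypes did not overlap: Cis KO was highest, Cis Stat6 KO lay between, and WT was lowest. This order was the same at 0.477 and 0.514 CPM in Cis Stat6 KO, 2.58 and 1.48 in Cis KO, and 0.0518 and 0.161 in WT. In Cis KO against WT the log2 fold change was 4.22 ± 0.98 (SE, n = 2 each), with an edgeR adjusted p of 0.267 and an unadjusted p of 0.00411. It was called by DESeq2 (adjusted p 0.000404), by edgeR with no filter (0.0442, where 3.9% of all genes were called) and by edgeR without Cis KO replicate 1 (0.0343, where 28.8% of all genes were called). Over all alternatives the change lay between 3.64 and 5.23 and the edgeR and DESeq2 adjusted p between 0.000404 and 0.971. In Cis Stat6 KO against Cis KO the change was -2.03 ± 0.89 (edgeR adjusted p 0.286), and in Cis Stat6 KO against WT 2.19 ± 0.92 (edgeR adjusted p 0.938). Those comparisons share the Cis KO or WT libraries and are not independent.

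The annotated exons of Clec9a overlap those of a neighbouring gene. In GENCODE M21 the first exon of Clec9a, chr6:129408862-129409045, lies within exon 2 of a retained-intron transcript of Clec1b on the same strand, which runs from 129405107 to 129409335. The shared stretch is 184 of the 3293 exon bases of Clec9a, or 5.59%, and the Clec9a window printed above lies in the same exon. Clec1b encodes CLEC-2, the receptor for podoplanin, and stood at 4.90 and 4.32 CPM in Cis Stat6 KO, 12.8 and 28.2 in Cis KO, and 1.48 and 1.32 in WT. It had the same order of genotypes as Clec9a and was called higher in Cis KO against WT, by 3.87 ± 0.46 (log2, SE; edgeR adjusted p 0.0441). Within Cis KO the libraries ranked the other way round for each gene: 0.201 Clec9a reads per Clec1b read in replicate 1 and 0.0526 in replicate 2. That ratio was 0.0973 and 0.119 in Cis Stat6 KO, and 0.0349 and 0.122 in WT. How reads in the shared exon were assigned is not stated, and the part of Clec1b reads in the Clec9a counts was not tested. Of the other detected lectin genes nearby, Clec12a was at -0.82 ± 0.22, Clec1a at 0.80 ± 0.52 and the oxidised LDL receptor gene Olr1 at -0.60 ± 0.21 in Cis KO against WT (log2, SE; edgeR adjusted p 0.367 to 0.535). Clec1b and these neighbours were chosen with their values in view.

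**Figure D1:**
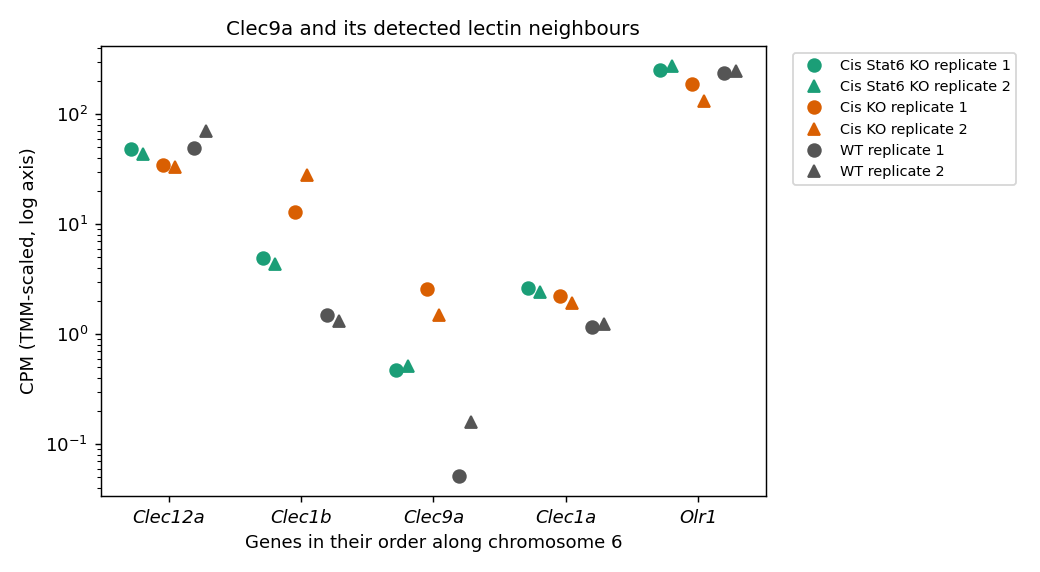
CPM (TMM-scaled, log axis) of Clec9a and its detected lectin neighbours, in their order along chromosome 6, with 1 point per library. Clec1b and Clec9a share the order Cis KO, Cis Stat6 KO, WT from high to low, with Clec1b between 12.8 and 28.2 CPM in Cis KO and at most 1.48 in WT, whereas Clec12a and Olr1 stood lower in both Cis KO libraries than in WT.

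Xcr1 (ENSMUSG00000060509, mm10 chromosome 9, 123852315 to 123862029), the receptor by which cDC1 follow the chemokine XCL1, ran against Clec9a. It had 65 and 59 reads in Cis Stat6 KO, 25 and 0 in Cis KO, and 62 and 35 in WT. Both Cis KO libraries were below the other 4, and the 0 in Cis KO replicate 2 allows up to 0.0685 CPM by counting error alone. That library had a read in 15855 genes, against 19641 to 20431 elsewhere. In it 4 of the 10 markers were at 0, against 0 to 3 elsewhere. The part of this wider loss in the Xcr1 value was not tested. The log2 fold change was -1.97 ± 1.57 in Cis KO against WT and 2.42 ± 1.59 in Cis Stat6 KO against Cis KO (SE, n = 2 each; edgeR adjusted p 0.600 and 0.441). Without Cis KO replicate 1 both were called, at -8.52 and 8.95, as were 28.8% and 32.2% of all genes, where the fit rests on the single library with no read, so that the fitted size is no bound, and the lone sample is assumed to vary like the other genotypes. In Cis Stat6 KO against WT the libraries overlapped, at 0.44 ± 1.50 (edgeR adjusted p 1.00). Both genes mark cDC1, yet in Cis KO replicate 2 Clec9a had 65 reads and Xcr1 none.

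Itgae (ENSMUSG00000005947, mm10 chromosome 11, 73090583 to 73147446) encodes CD103, an integrin of lung cDC1 that T cells of epithelia also carry. It had 267 and 70 reads in Cis Stat6 KO, 41 and 127 in Cis KO, and 39 and 74 in WT. Cis Stat6 KO replicate 1 was the highest library, and its 8 T cell genes had the lowest sum of the 6, 1.69 FPKM. The part of T cells in the Itgae values was not tested. In CPM the Cis Stat6 KO libraries, at 3.86 and 1.44, both lay above WT, at 0.673 and 1.08. The change of 1.59 ± 0.91 against WT was not called (log2, SE; edgeR adjusted p 1.00), nor was 1.01 ± 0.90 in Cis KO against WT or 0.59 ± 0.89 in Cis Stat6 KO against Cis KO (edgeR adjusted p 0.646 and 0.754). The last change was -0.30 without Cis Stat6 KO replicate 1 and -0.11 without Cis KO replicate 1, and that in Cis KO against WT was -0.45 without Cis KO replicate 2.

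Flt3 (ENSMUSG00000042817, mm10 chromosome 5, 147330741 to 147400489), the growth factor receptor of dendritic cell precursors, had most of its reads in Cis Stat6 KO. It had 96 and 56 reads in Cis Stat6 KO, 15 and 0 in Cis KO, and 3 and 0 in WT. Both Cis Stat6 KO libraries stood above all 4 others, at 1.39 and 1.15 CPM, though at 0.22 and 0.16 FPKM the level per length was low. Summed over replicates, the ratio of Cis Stat6 KO to WT per read sequenced was 52.1 (95% counting interval 17.5 to 255), with 152 and 3 reads. That interval leaves out the spread between libraries. Flt3 passed the count filter only through Cis Stat6 KO, the genotype in which it was high, so its fitted changes are a description. The fitted change against WT was 5.55 ± 2.17 (log2, SE) with an edgeR adjusted p of 0.877 and an unadjusted p of 0.0397, and a DESeq2 adjusted p of 0.11. Against Cis KO it was 3.38 ± 1.92 (edgeR adjusted p 0.383). Without Cis KO replicate 1, which leaves the library with no Flt3 read, the change against Cis KO was called at 9.19 (edgeR adjusted p 0.0314), as were 32.2% of all genes, and again the fitted size is no bound. Cis KO against WT, with 15 and 3 reads, gave a ratio of 5.49 (95% counting interval 1.55 to 29.6). All 15 Cis KO reads came from replicate 1, and replicate 2 was the library with the fewest genes detected.

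Zbtb46 (ENSMUSG00000027583, mm10 chromosome 2, 181387762 to 181459426), a transcription factor of conventional dendritic cells that endothelium also makes, varied widely within genotypes. It had 81 and 22 reads in Cis Stat6 KO, 48 and 71 in Cis KO, and 8 and 63 in WT, and every pair of genotypes overlapped. The log2 changes were 1.15 ± 1.13 in Cis KO against WT, -0.54 ± 1.12 in Cis Stat6 KO against Cis KO and 0.61 ± 1.12 in Cis Stat6 KO against WT (SE, n = 2 each; edgeR adjusted p 0.675 to 1.00). The endothelial genes Cdh5, Kdr and Cldn5 had at most 11 reads in any library. Pecam1, which led the 4 endothelial genes, had 20 and 68 reads in Cis Stat6 KO, 78 and 138 in Cis KO, and 37 and 4 in WT. The 4 genes summed to 0.04 to 0.39 FPKM, beside 0.02 to 0.15 FPKM for Zbtb46. The part of endothelium in the Zbtb46 values was not tested. Zbtb46 and Flt3, which mark the same lineage, thus ordered the 6 libraries differently.

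The single cDC2 marker and the single plasmacytoid marker were close to absent. Cd209a (ENSMUSG00000031494, mm10 chromosome 8, 3743397 to 3748984), the mouse lectin related to human DC-SIGN, had 21 and 0 reads in Cis Stat6 KO and none in the other 4 libraries. Set against 3 reads over a group, Cis Stat6 KO came to 6.55-fold Cis KO and 7.20-fold WT per read sequenced, entirely from replicate 1. These folds take the 21 reads as exact, so they are not lower bounds. A count of 0 allows up to 0.0438 to 0.0685 CPM, depending on the library. Siglech (ENSMUSG00000051504, mm10 chromosome 7, 55768178 to 55778925), a surface lectin of plasmacytoid cells, had 8 and 0 reads in Cis Stat6 KO, none in Cis KO, and 4 and 0 in WT. Each of these Siglech counts is a multiple of 4, the value in excess among low counts. On the same scale, Cis Stat6 KO came to 2.50-fold Cis KO in Siglech, from 8 reads of 1 library, and that too is no lower bound. Neither gene passed the filter on low counts, so neither was tested.

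**Figure D2:**
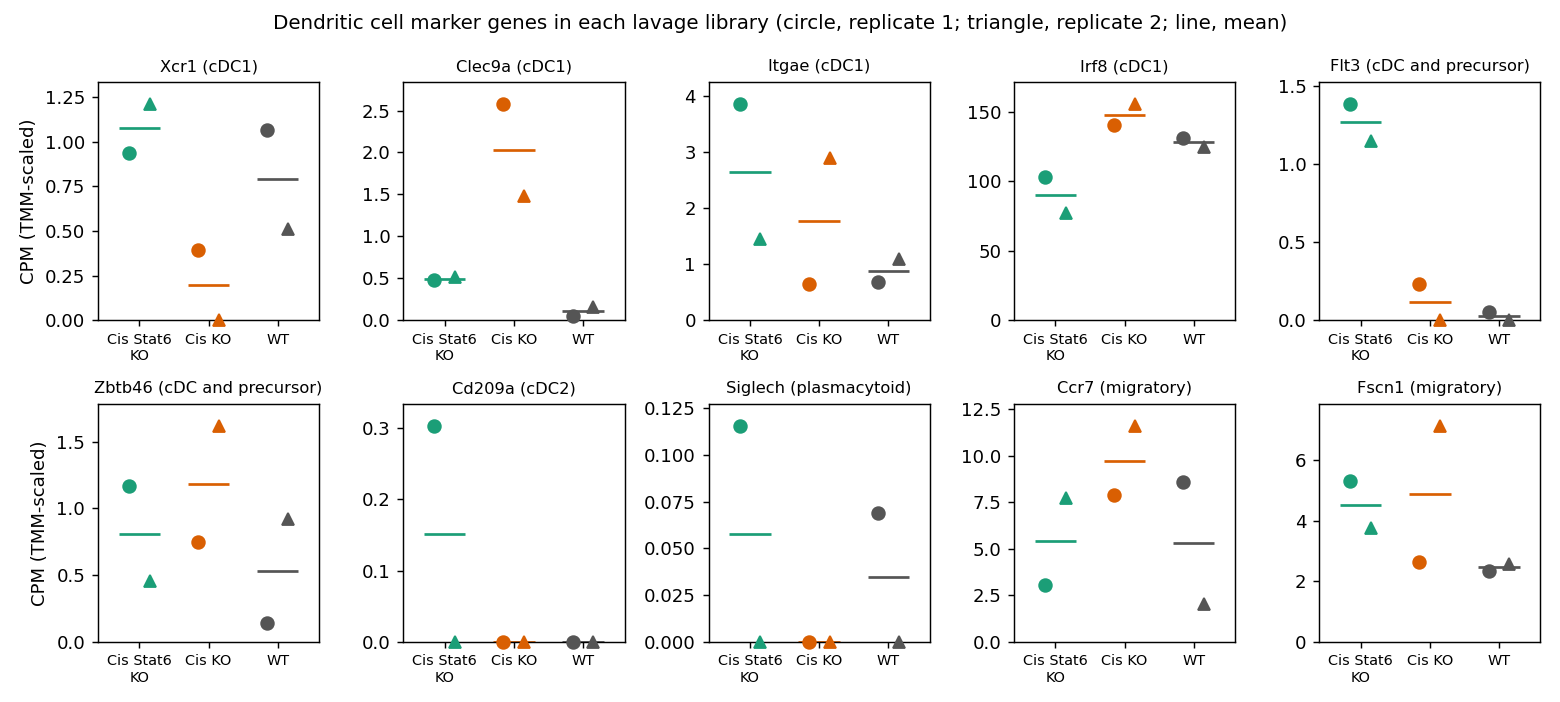
CPM (TMM-scaled) of each of the 10 marker genes in Cis Stat6 KO, Cis KO and WT, with a circle for replicate 1, a triangle for replicate 2 and a line for the mean; each panel has its own axis from 0. Flt3 stands at 1.39 and 1.15 CPM in Cis Stat6 KO and at most 0.234 elsewhere, Clec9a is highest in Cis KO, and Irf8 is lowest in Cis Stat6 KO.

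The migratory genes Ccr7 and Fscn1 were the most abundant members after Irf8. Fscn1 (ENSMUSG00000029581, mm10 chromosome 5, 142960343 to 142973185) stood at 1.70 and 1.04 FPKM in Cis Stat6 KO, 0.86 and 1.83 in Cis KO, and 0.74 and 0.79 in WT. All 4 mutant libraries lay above both WT libraries, Cis KO replicate 1 only narrowly. In CPM the means were 4.53 ± 1.09 in Cis Stat6 KO, 4.89 ± 3.19 in Cis KO and 2.46 ± 0.160 in WT (SD, n = 2 each). The changes against WT were 0.88 ± 0.56 in Cis Stat6 KO and 0.99 ± 0.56 in Cis KO (log2, SE; edgeR adjusted p 1.00 and 0.499), and the 2 share the WT libraries. Without Cis KO replicate 1 the change in Cis KO against WT was called, at 1.52 (edgeR adjusted p 0.0199), as were 28.8% of all genes, and without Cis KO replicate 2 it was 0.10 (edgeR adjusted p 0.98). Between Cis Stat6 KO and Cis KO it was -0.11 ± 0.55 (edgeR adjusted p 0.939), and without Cis KO replicate 2 it was 0.77.

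Ccr7 (ENSMUSG00000037944, mm10 chromosome 11, 99144196 to 99155077) differed widely between the replicates of Cis Stat6 KO and between those of WT. It stood at 1.51 and 3.27 FPKM in Cis Stat6 KO, 3.91 and 4.54 in Cis KO, and 4.10 and 0.96 in WT. Naive T cells and B cells carry CCR7 as well. The 8 T cell genes (Cd3e, Cd3d, Cd3g, Cd4, Cd8a, Cd8b1, Lck and Cd5) summed to 1.69 and 5.98 FPKM in Cis Stat6 KO, 4.39 and 4.33 in Cis KO, and 7.74 and 2.05 in WT. The same libraries, Cis Stat6 KO replicate 1 and WT replicate 2, were the lowest for both Ccr7 and the T cell sum, and none of the 8 T cell genes was at 0 in any library. The B cell sum was 0.25 and 7.09 FPKM in Cis Stat6 KO, 0.41 and 47.0 in Cis KO, and 2.65 and 1.17 in WT. The part of T cells and B cells in the Ccr7 values was not tested. In bulk RNA, fewer cells of a type and less RNA per cell cannot be told apart. The log2 changes of Ccr7 were 0.88 ± 0.74 in Cis KO against WT, -0.85 ± 0.74 in Cis Stat6 KO against Cis KO and 0.03 ± 0.73 in Cis Stat6 KO against WT (SE, n = 2 each; edgeR adjusted p 0.559 to 1.00). The first was 2.24 without WT replicate 1 and 0.18 without WT replicate 2. The second was -0.33 without Cis Stat6 KO replicate 1 and -1.65 without Cis Stat6 KO replicate 2. The third was -0.79 without Cis Stat6 KO replicate 2 and 1.39 without WT replicate 1.

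**Figure D3:**
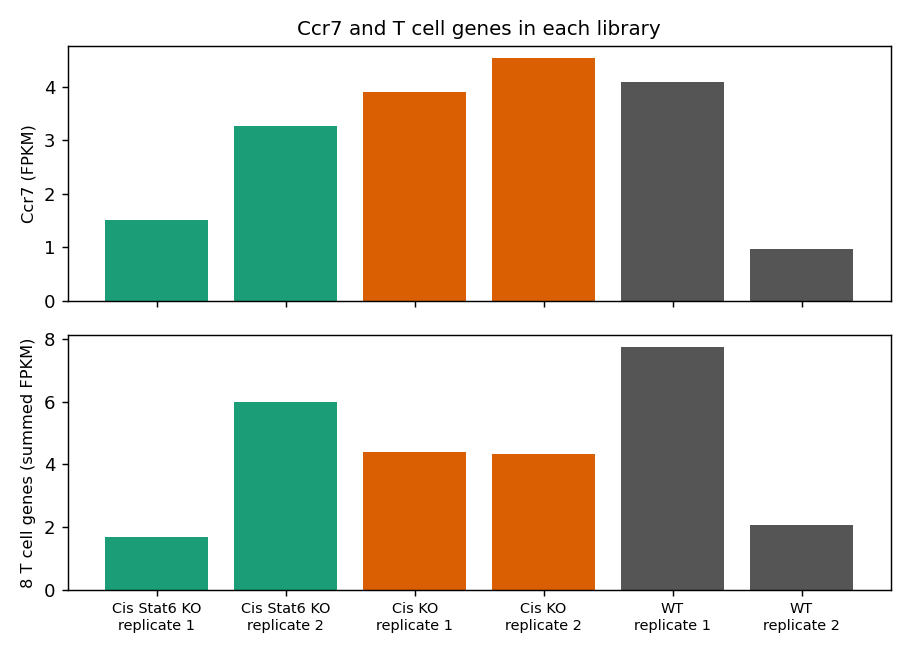
Ccr7 (FPKM, upper bars) and the summed FPKM of 8 T cell genes (lower bars) in each library. Cis Stat6 KO replicate 1 and WT replicate 2 are lowest in both, at 1.51 and 0.96 FPKM for Ccr7 and 1.69 and 2.05 FPKM for the T cell genes.

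Over the 10 markers together, 8 passed the count filter and 0 were called by edgeR in any of the 3 comparisons. In Cis KO against WT, 0.274% of the 16765 genes tested were called; 1 of the 8 markers, Clec9a, had an unadjusted p under 0.05, as had 11.1% of all genes, and DESeq2 called 1, where it called 3.44% of 15841. In Cis Stat6 KO against Cis KO, 0.358% of all genes were called; 1 of the 8, Irf8, had an unadjusted p under 0.05 (18.3% of all), and DESeq2 called 1 (9.85% of all). In Cis Stat6 KO against WT, 0.131% of all genes were called; 2 of the 8, Irf8 and Flt3, had an unadjusted p under 0.05 (5.36% of all), and DESeq2 called 0 (1.97% of all). Libraries of the genotypes did not overlap for 4 of the 8 in Cis KO against WT, 5 in Cis Stat6 KO against Cis KO and 5 in Cis Stat6 KO against WT. Among all tested genes this held for 47.4%, 50.4% and 46.8% in the same order. By direction, 3 markers stood higher and 1 lower in Cis KO than in WT (21.4% and 25.9% of all genes), 2 higher and 3 lower in Cis Stat6 KO than in Cis KO (27.9% and 22.5%), and 4 higher and 1 lower in Cis Stat6 KO than in WT (23.3% and 23.5%). The edgeR calls over all genes split into 0.119% higher and 0.155% lower in Cis KO against WT, 0.239% and 0.119% in Cis Stat6 KO against Cis KO, and 0.0656% and 0.0656% in Cis Stat6 KO against WT, with 0 markers in each. The median log2 change of the 8 was 1.00, -0.32 and 0.75 in that order, beside -0.05, 0.05 and 0.00 for all genes tested. These medians mix genes with opposite changes. Genes such as Flt3 entered the medians and the counts above only through the genotype in which they were high.

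**Figure D4:**
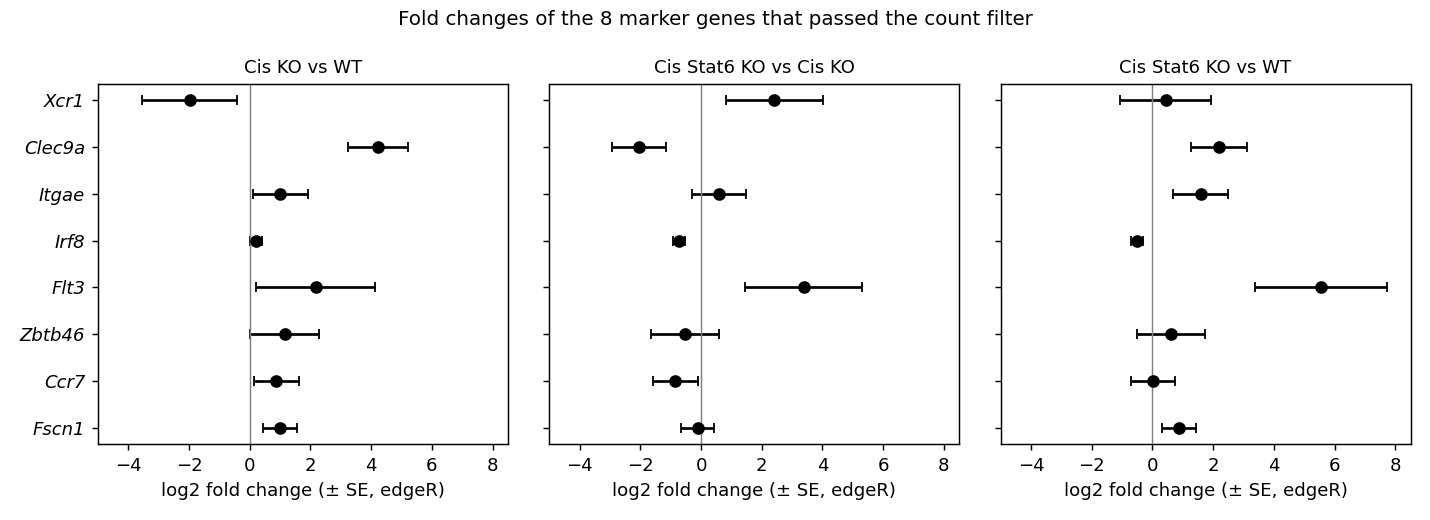
Log2 fold change with its standard error (edgeR) of the 8 marker genes that passed the count filter, in each of the 3 comparisons. Clec9a at 4.22 and Xcr1 at -1.97 lie on opposite sides in Cis KO against WT, and the narrow errors belong to Irf8, the gene with the most reads.

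Other genes of the same cell types were examined as 5 lists, chosen with earlier results of these data known. Of 52 such genes 51 were examined, with Klk1 not analysed here, and 50 passed the filter; 0 were called by edgeR in any comparison. An unadjusted p under 0.05 was reached by 8, 11 and 4 of them, and DESeq2 called 3, 7 and 1, in Cis KO against WT, Cis Stat6 KO against Cis KO and Cis Stat6 KO against WT. Among all genes the unadjusted p was under 0.05 for 11.1%, 18.3% and 5.36%, and DESeq2 called 3.44%, 9.85% and 1.97%. The median log2 change of the 50 was 0.01, 0.22 and 0.02 in that order, beside -0.05, 0.05 and 0.00 for all genes tested.

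Among the 9 further cDC1 genes, the most abundant were Naaa, a lysosomal amidase, at 99.6 to 191.57 FPKM over the 6 libraries, and Cd24a, a sialoglycoprotein, at 44.89 to 97.89. Those levels exceed that of any cDC1 marker named above, and neither gene is limited to dendritic cells. Batf3, the partner of IRF8, stood at 1.33 and 1.30 FPKM in Cis Stat6 KO, 2.84 and 8.28 in Cis KO, and 1.84 and 2.88 in WT; it was named after its values were seen. Its change in Cis Stat6 KO against Cis KO was -2.20 ± 0.65 (log2, SE; edgeR adjusted p 0.196). Cadm1, an adhesion molecule of cDC1, had 49 and 74 reads in Cis Stat6 KO, 20 and 0 in Cis KO, and 90 and 92 in WT. Like Xcr1, it was lowest in both Cis KO libraries. The 0 came from Cis KO replicate 2, the library with the fewest genes detected. The median of the 8 tested genes of this list was -0.17 in Cis KO against WT.

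Of the 9 further cDC2 genes, Sirpa, an inhibitory receptor, was highest at 159.66 to 233.46 FPKM, followed by the transcription factor gene Klf4 at 6.98 to 17.2. Macrophages express both. The integrin gene Itgam, which encodes CD11b, stood at 5.65 and 5.56 FPKM in Cis Stat6 KO, 0.83 and 1.80 in Cis KO, and 1.50 and 1.57 in WT. Its changes were 1.97 ± 0.46 against Cis KO and 1.93 ± 0.46 against WT (log2, SE; edgeR adjusted p 0.145 and 0.376). Esam, an adhesion molecule of a cDC2 subset, had a pattern close to that of Flt3, with 63 and 26 reads in Cis Stat6 KO, 6 and 0 in Cis KO, and none in WT. Itgam and Esam were named after their values were seen, and Esam, like Flt3, passed the count filter only through Cis Stat6 KO. Clec10a, Mgl2 and Clec4a4 of the same list had reads in all 3 genotypes. Clec10a had 65 and 43 reads in Cis Stat6 KO, 65 and 15 in Cis KO, and 37 and 57 in WT. In the same order, Mgl2 had 30 and 71, 77 and 36, and 27 and 10. Clec4a4 had 14 and 16, 18 and 0, and 29 and 8. The median log2 change of this list was 0.42 in Cis Stat6 KO against Cis KO and 0.31 against WT. Irf4, a transcription factor that cDC2 need, had 245 and 681 reads in Cis Stat6 KO, 716 and 363 in Cis KO, and 716 and 317 in WT. Neutrophils and monocytes also carry CD11b. The 6 neutrophil genes, led by S100a8, summed to 120 and 247 FPKM in Cis Stat6 KO and 34.5 and 452 in Cis KO. In WT they summed to 56.9 and 55.1. Patterns differed within this list. Cxcr2 stood at 3.33 and 2.77 FPKM in Cis Stat6 KO, 0.94 and 1.04 in Cis KO, and 1.07 and 0.98 in WT. In the same order, Csf3r stood at 17.29 and 12.5, 16.81 and 13.1, and 30.36 and 29.35. Both were named after their values were seen. The part of neutrophils in the Itgam values was not tested.

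Among the 10 further plasmacytoid genes found, Bst2, an antiviral membrane protein, stood at 25.63 to 37.77 FPKM and the transcription factor gene Runx2 at 3.03 to 4.59 over the 6 libraries. Tcf4 is the factor that defines the plasmacytoid lineage. It had 319 and 135 reads in Cis Stat6 KO, 337 and 4 in Cis KO, and 284 and 329 in WT. Siglech had at most 8 reads in any library, and which lavage cells made Bst2, Runx2 and Tcf4 RNA was not tested. Spib and Ly6d, which B cells share, had 413 and 202 reads in Cis KO replicate 2 and at most 23 and 12 elsewhere, and this is the library with the highest B cell sum. Of the 13 further migratory genes, Tmem123 stood at 31.38 to 57.02 FPKM and Cd274, which encodes the checkpoint ligand PD-L1, at 19.98 to 50.3. Of the 10 further genes of conventional cells and precursors, Itgax stood at 189.49 to 338.86 FPKM. It encodes CD11c and is also high in alveolar macrophages. The transcription factor gene Spi1 stood at 102.21 to 278.29 FPKM. Which lavage cells made Tmem123, Cd274 and Spi1 RNA was not tested either. Ciita, the activator of MHC class II genes, stood at 0.15 and 0.14 FPKM in Cis Stat6 KO, 0.42 and 0.43 in Cis KO, and 0.08 and 0.09 in WT. This is the same order of genotypes as Clec9a, and Ciita was named after its values were seen. Its change of 2.42 ± 0.51 in Cis KO against WT was not called (log2, SE; edgeR adjusted p 0.204). The class II gene H2-Ab1 of the same list did not keep that order. It stood at 12.28 and 6.17 FPKM in Cis Stat6 KO, 27.56 and 25.15 in Cis KO, and 13.67 and 8.03 in WT. Itgax, Zeb2 and Dpp4 did not keep it either.

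For the most abundant marker of each subset, the genes with the most similar pattern were found by Pearson correlation of log2 CPM over the 6 libraries. For Irf8 they were Tmem198b, Plscr3 and Scarb1 (r = 0.997, 0.995 and 0.995). Irf8 and these 3 genes were lowest in both Cis Stat6 KO libraries. For Zbtb46 they were Oard1, Plaur and Zfp420 (r = 0.991, 0.988 and 0.975), and WT replicate 1 was lowest for Zbtb46 and for all 3. For Ccr7 they were Rsad1, Slc26a10 and Tnk2 (r = 0.982, 0.980 and 0.977). For Cd209a and Siglech the leading genes, Cep170b (r = 0.974) and Rnf213 (r = 0.991), rest on the 1 and 2 libraries in which those markers had any read. These values come from a search of 10655 genes over 6 libraries and are a description only.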

How the data were processed

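RNA of lavage cells from 6 mouse samples was sequenced by the submitters. The authors deposited a read count and an FPKM value per gene and sample, per the file headers; the build is mm10, per the submitters' processing notes. The sources used here name no aligner, counting tool or strandedness.

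Counts were tested in edgeR 4.0.16 (R 4.3.3) with TMM scaling, filterByExpr (16765 genes kept) and the two-sided quasi-likelihood F test, with all 6 libraries in 1 fit. Genes were called at a Benjamini-Hochberg adjusted p under 0.05 over all genes tested. Standard errors are the log2 change divided by the root of F. The biological coefficient of variation was 50.3% on 3 residual degrees of freedom. FPKM served for levels between genes. A count of 0 was given a limit of 3 counts. The fit was tested on simulated data with less spread than these libraries and with changes only in genes with many reads. That test says nothing about markers with few reads. Alternatives were DESeq2 1.42.0, RLE factors, no filter, a replicate block, only the groups compared, and each library left out. Gene overlaps came from GENCODE M21.

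The markers, lists and rules were chosen with earlier results of these data known. The rule named the 10 markers, Cish, Stat6, the 2 most abundant and any called genes of each further dendritic cell list, the leading gene of each other-cell list (Lck for T cells), and the 3 genes most like each subset's leading marker (log2 of CPM + 0.1, mean of at least 1 CPM). Batf3, Cadm1, Irf4, Tcf4, Spib, Ly6d, Ciita, Itgam, Esam, Clec1b and its neighbours fall outside that rule. Clec10a, Mgl2, Clec4a4, Cxcr2, Csf3r, H2-Ab1, Zeb2, Dpp4, Cdh5, Kdr, Cldn5 and the T cell genes other than Lck do so too.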

Additional observations from a re-analysis of the deposited data

How the results depend on the processing

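The 3 comparisons are given in the order Cis KO against WT, Cis Stat6 KO against Cis KO, and Cis Stat6 KO against WT. Genes called by edgeR numbered 46, 60 and 22; DESeq2 called 545, 1560 and 321, no filter 1021, 1840 and 385, and a fit of only the groups compared 6, 5 and 277. Nothing in the labels pairs the replicate numbers across genotypes. Correlations of replicate differences were -0.0317, 0.0133 and -0.0653. With 1 difference per genotype, and with Cis KO replicate 2 standing apart, they cannot show whether samples were paired. The replicate block called 24, 28 and 12. Leaving out 1 library gave 3 (without WT replicate 2) to 5349 (without Cis KO replicate 1), 4 (without Cis Stat6 KO replicate 2) to 5999 (without Cis KO replicate 1), and 0 (without Cis Stat6 KO replicate 1) to 350 (without Cis KO replicate 2). Markers called numbered 0 in each comparison. DESeq2 called 1, 1 and 0, and no filter 1, 0 and 0. Leaving out 1 library gave 0 to 3, 0 to 3, and 0; the 3, of 9 tested, came without Cis KO replicate 1, where 28.8% and 32.2% of all genes were called, and were Clec9a, Fscn1 and Xcr1, then Flt3, Irf8 and Xcr1. Signs of log2 changes turned when 1 library was left out for Itgae (-0.45 to 1.70) and Flt3 (-3.64 to 5.85) in Cis KO against WT, for Itgae (-0.30 to 2.04), Zbtb46 (-1.39 to 0.11) and Fscn1 (-0.64 to 0.77; 0.00 under the replicate block) in Cis Stat6 KO against Cis KO, and for Zbtb46 (-0.24 to 2.54) and Ccr7 (-0.79 to 1.39) in Cis Stat6 KO against WT. The cause was not tested. Of 263 alternative values, 242 kept direction and side of the threshold. Since 0 markers were called in the main fit, keeping the side of the threshold meant only staying uncalled. A library left alone in its genotype was assumed to vary like the others, and markers with under 100 reads are limited by depth.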
